A study of Homo sapiens with 15 samples.

Results

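The nuclear genes of respiratory complexes I, II and III were followed through the 5 groups of an RNA-seq series on A549 cells, an epithelial line from a human lung adenocarcinoma. They were taken by symbol, as the rows named NDUFA, NDUFB, NDUFC, NDUFS or NDUFV with a number, SDHA to SDHD, and UQCRB, UQCRC1, UQCRC2, UQCRFS1, UQCRH, UQCRQ, UQCR10 and UQCR11, with at least 50 counts summed over the 15 libraries. The rule gave 49 genes of the 26475 in the table, and all 49 had enough counts to be tested. Each group held 3 libraries taken at 48 h. IL4 was given with a Smartpool ALOX15 siRNA (1 uM), with a Smartpool control siRNA, with a substance named only as Compound A, or alone. The other group was untreated cells, and IL4 was at 10 ng/ml in each of the 4 treated groups. All 4 treated groups thus share the cytokine, and all groups share the cell line. The labels used here say neither what Compound A is nor how much of it, or of the control siRNA, the cells received. The labels do not say whether replicates were separate cultures, so a p-value here speaks of the spread among these libraries, and that spread may be technical.

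Complex I takes electrons from NADH and passes them to ubiquinone, complex II does so from succinate as part of the tricarboxylic acid (TCA) cycle, and complex III passes them on from ubiquinol to cytochrome c. Complexes I and III move protons across the inner mitochondrial membrane, and the gradient drives ATP synthase. Interleukin-4 (IL4) is a cytokine of type 2 immunity known for inducing ALOX15, a lipoxygenase, in airway epithelium; in mouse macrophages it is also known for raising oxidative metabolism. By role the genes comprised the 7 core subunits of complex I that carry its cofactors, 9 accessory subunits of its matrix arm, 20 of its membrane arm, 4 of complex II and 8 of complex III. The last, NDUFA4, bears a complex I name, but its protein is now counted with complex IV. The 8 listed subunits that mitochondrial DNA encodes had no row in the table and were not analysed here.

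Totals ran from 6407936 to 11031246 counts per library, and the 49 genes took 0.311% to 0.385% of them. ALOX15, the target of the knockdown, stood at 0.136, 0.314 and 0.259 CPM (counts scaled to a common library size) with ALOX15 siRNA and at 3.91, 3.56 and 3.28 CPM with control siRNA, and CCL26, an IL4-induced chemokine gene, at 120, 90.4 and 84.7 CPM with IL4 and 0.627, 0.551 and 1.34 CPM untreated. Both went the way of the labels. ALOX15 was also lower with Compound A than with IL4 alone (log2 -1.23, adjusted p = 0.0033 by edgeR's quasi-likelihood test). It had 2.59, 2.23 and 1.81 CPM with Compound A and 6.00, 4.72 and 5.09 CPM with IL4. All 6 epithelial markers were present, and KRT8 ran from 2623 to 5646 CPM. The alveolar type II-like character in the labels was borne by few of its 9 listed markers: SFTPB and SLC34A2 had no count, and SFTPC reached at most 0.179 CPM, while ABCA3 ran from 35.9 to 71.8 CPM and LAMP3 from 1.34 to 6.58 CPM. The leukocyte genes PTPRC and CD3E had no count. IL4 replicate 1 differed from the other IL4 libraries more than replicates did elsewhere, with a chi-square per degree of freedom of 10.2 and 13.7 against them, where the other replicate pairs ran from 1.61 to 5.43. Results that rest on it are therefore given with and without it.

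The promoter windows of 4 genes on which the results turn are shown first: UQCRC1 and SDHA, which were higher with IL4 and lower with Compound A, NDUFS1, which was higher with IL4, and NDUFA9, which was lower with Compound A. They are RefSeq windows on GRCh38.p14, from 250 bases before to 50 after the annotated start, and capitals mark the matches to the NRF1, YY1 and ETS motifs described next.
UQCRC1 (chr3:48609597-48609896, minus strand): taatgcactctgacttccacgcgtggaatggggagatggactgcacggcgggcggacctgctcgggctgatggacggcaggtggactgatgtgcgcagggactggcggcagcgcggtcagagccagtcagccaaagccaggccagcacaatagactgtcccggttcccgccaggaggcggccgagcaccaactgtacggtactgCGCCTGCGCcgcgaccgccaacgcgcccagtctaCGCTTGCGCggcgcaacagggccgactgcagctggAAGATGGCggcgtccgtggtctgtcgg
SDHA (chr5:218070-218369, plus strand): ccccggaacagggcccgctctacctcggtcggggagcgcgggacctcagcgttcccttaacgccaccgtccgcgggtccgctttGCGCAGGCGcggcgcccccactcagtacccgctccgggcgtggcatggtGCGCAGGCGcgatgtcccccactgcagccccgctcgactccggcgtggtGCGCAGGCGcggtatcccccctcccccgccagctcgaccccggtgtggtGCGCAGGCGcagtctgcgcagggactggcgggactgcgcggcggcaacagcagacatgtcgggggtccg
NDUFS1 (chr2:206159395-206159694, minus strand): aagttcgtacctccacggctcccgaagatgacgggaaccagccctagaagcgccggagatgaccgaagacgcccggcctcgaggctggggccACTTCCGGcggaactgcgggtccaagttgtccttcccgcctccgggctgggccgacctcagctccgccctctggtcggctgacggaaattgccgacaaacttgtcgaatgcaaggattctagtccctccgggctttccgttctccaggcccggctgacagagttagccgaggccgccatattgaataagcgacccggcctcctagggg
NDUFA9 (chr12:4648864-4649163, plus strand): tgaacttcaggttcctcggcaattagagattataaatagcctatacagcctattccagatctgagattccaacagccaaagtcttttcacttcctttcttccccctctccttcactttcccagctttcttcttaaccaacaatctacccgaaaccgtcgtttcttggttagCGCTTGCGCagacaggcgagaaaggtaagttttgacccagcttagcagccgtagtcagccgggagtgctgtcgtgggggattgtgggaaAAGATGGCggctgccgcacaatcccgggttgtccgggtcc

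Windows were found for 41 of the 49 genes, and the other 8, NDUFA4, NDUFB5, NDUFC2, SDHC and UQCRB among them, had none. Short motifs were searched on both strands. Each of the 41 genes entered with its first listed window, while the share of all windows counts every window listed. Those windows were not limited to genes tested here or matched for GC content. GCGCANGCG, the core bound by NRF1 (nuclear respiratory factor 1), was in 14 of the 41 windows (34.1%) and in 7.52% of all 35116 windows of the same length. The UQCRC1 window holds it at 2 places and the SDHA window at 4. In SDHA each of them reads GCGCAGGCG. AAGATGGC, the core bound by YY1, was in 8 of the 41 (19.5%) against 2.89% of all, among them UQCRC1 and NDUFA9. CCGGAAGT, a core bound by ETS factors such as GABP, was in 6 (14.6%) against 4.14% of all, among them NDUFS1. TTCNNNNGAA, the spacing favoured by STAT6, the factor downstream of the IL4 receptor, was in 1 (2.44%, UQCR10) against 6.44% of all, and TATAAA was in 4 (9.76%) against 11.5%. Of the 8 genes with a window that were called higher with IL4, 3 held the NRF1 core, 2 the YY1 core, 1 the ETS core and 0 the STAT6 spacing. In the 4 windows shown no matches overlap, and a match is only a match of letters.

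The first comparison asked what IL4 alone did to these genes. With IL4, 11 of the 49 were called higher and 0 lower, and the higher ones came from complexes I, II and III alike. Of all 12795 genes tested, 11.2% were called higher and 11.6% lower. The median log2 change of the 49 was 0.15, against -0.02 over all genes, and 38 of the 49 changes were positive. The changes were small: all but UQCRC1 and NDUFS7 lay between -0.16 and 0.42 on the log2 scale. Adjusted p-values are those of edgeR's quasi-likelihood test over all genes by the Benjamini-Hochberg method, with a call at 0.05. On the lower side, DESeq2 called 0 of the 49 and 1 had an unadjusted p under 0.05. In 16 of the 49 genes every IL4 library lay above every untreated one, and in 1, NDUFC2, every IL4 library lay below. The same held upward for 15.5% and downward for 18% of all genes. Summed over the 49 genes, the IL4 libraries had 3737, 3528 and 3420.0 CPM and the untreated ones 3346, 3144 and 3109 CPM. The lowest IL4 sum lay above the highest untreated one.

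**Figure D1:**
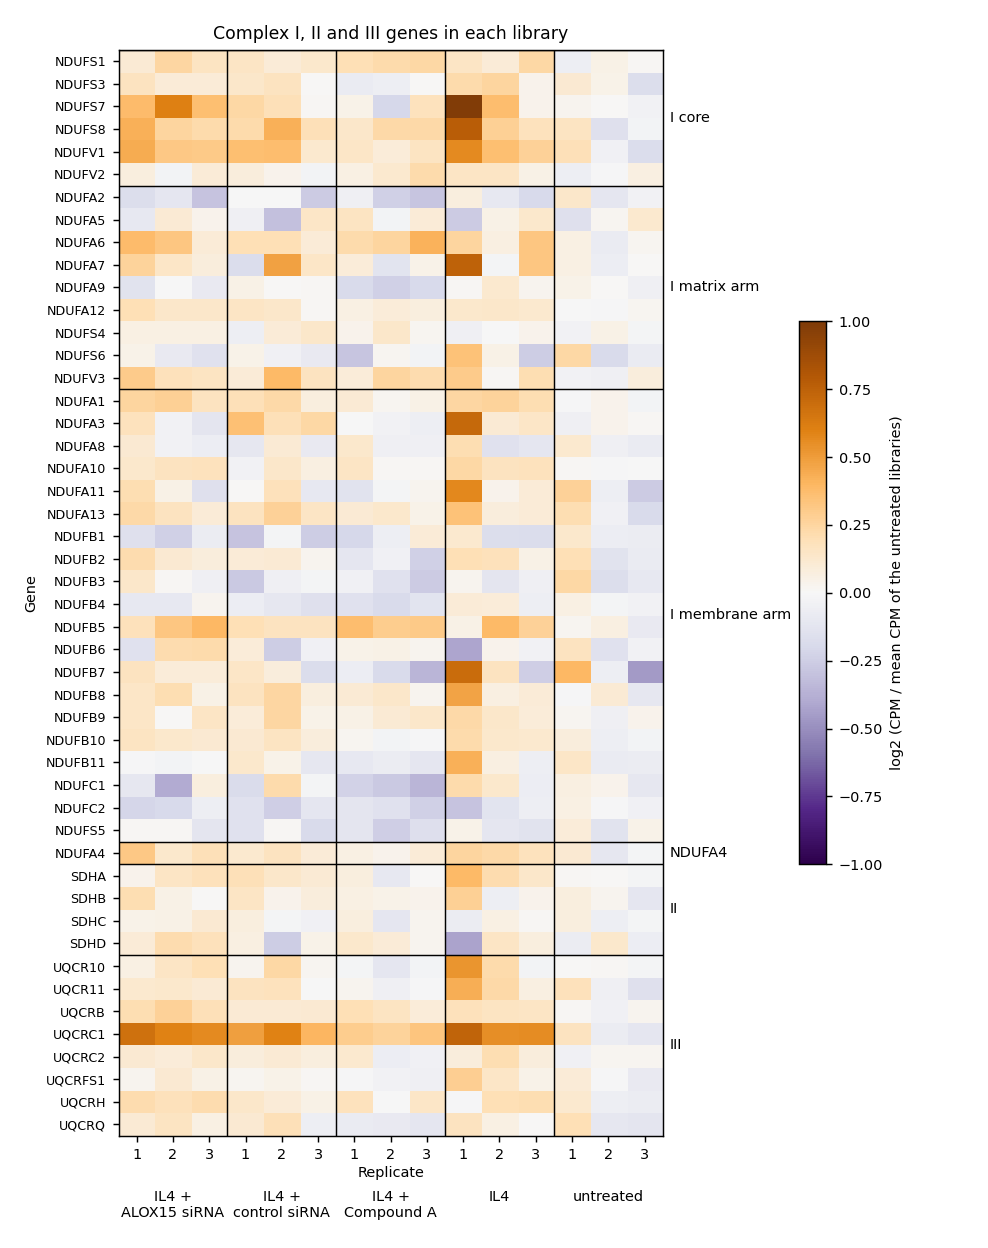
Each row is 1 of 48 of the genes and each column a library; colour gives log2 of the CPM over the mean CPM of the 3 untreated libraries, from purple (lower) to brown (higher), with genes grouped by complex. UQCRC1 is brown in all 12 IL4-treated libraries and palest among them with Compound A, and IL4 replicate 1 holds the darkest cells.

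Complex III held the largest change. UQCRC1, which encodes core protein 1 of that complex (minus strand of chromosome 3, 48599002 to 48610976 of GRCh38), had 143, 126 and 127 CPM with IL4 and 96.8, 81.7 and 79.6 CPM untreated. The groups did not overlap. The mean was 132 ± 9.87 CPM with IL4 and 86.0 ± 9.38 CPM untreated (SD, n = 3 each), a 1.53-fold difference (log2 0.61, SE 0.08, adjusted p = 6.1e-06). UQCRB, a small subunit needed for the assembly of the complex, was also called higher, with 158, 156 and 155 CPM with IL4 and 141, 136 and 142 CPM untreated (log2 0.16, SE 0.05, adjusted p = 0.033); its counts were not whole in 14 libraries, as arises where reads are shared with another gene. All 8 complex III genes had positive changes. UQCRC2, the other core protein, had 214, 234 and 214 CPM with IL4 and 196, 205 and 205 CPM untreated, without overlap, but was not called (log2 0.13, adjusted p = 0.13). UQCRFS1, the Rieske iron-sulphur protein, had 238, 216 and 201 CPM with IL4 and 209, 193 and 184 CPM untreated, which overlap (adjusted p = 0.071). UQCRH, the hinge protein, overlapped as well, at 79.3, 91.8 and 91.9 CPM with IL4 and 86.9, 76.4 and 75.9 CPM untreated.

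Among the core subunits of complex I, 4 of 7 were called higher with IL4. NDUFV1 (chromosome 11, 67605653 to 67612554), the flavin-bearing subunit where NADH is oxidised, had 114, 98.8 and 92.3 CPM with IL4 and 87.7, 74.6 and 67.8 CPM untreated. Its lowest IL4 library lay above its highest untreated one (log2 0.40, SE 0.09, adjusted p = 0.0033). NDUFS1 (chromosome 2, 206114817 to 206159603), the largest subunit and a carrier of iron-sulphur clusters, had 156, 151 and 166 CPM with IL4 and 135, 146 and 142 CPM untreated (log2 0.16, SE 0.06, adjusted p = 0.047). It was called in 17 of the 26 settings, and not without untreated replicate 1 or 3 or IL4 replicate 3, among others (highest adjusted p = 0.16). NDUFS7 and NDUFS8 carry iron-sulphur clusters near the ubiquinone site, and both calls were lost without IL4 replicate 1. The NDUFS7 call was also lost on leaving out any 1 of the untreated libraries, and the NDUFS8 call without untreated replicate 2. NDUFS7 had 29.2, 19.0 and 15.02 CPM with IL4 and 14.97, 14.8 and 14.3 CPM untreated (log2 0.51, SE 0.17, adjusted p = 0.038). The lowest IL4 library of NDUFS7 lay barely above the untreated ones, and without replicate 1 the change was 0.21 (adjusted p = 0.31). NDUFS8 had 80.2, 57.2 and 53.1 CPM with IL4 and 52.6, 42.4 and 46.3 CPM untreated (log2 0.42, adjusted p = 0.017), and without replicate 1 it gave 0.22 (adjusted p = 0.079). NDUFS3 (log2 0.16, adjusted p = 0.17) and NDUFV2 (0.12, adjusted p = 0.18) were not called, and their groups overlapped.

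Of the accessory subunits of complex I, 3 of 20 in the membrane arm and 0 of 9 in the matrix arm were called higher by edgeR's quasi-likelihood test; for the matrix arm 2 had an unadjusted p under 0.05 and DESeq2 called 0. NDUFA1, a small membrane subunit, had 106, 108 and 103 CPM with IL4 and 89.1, 92.0 and 88.2 CPM untreated (log2 0.24, adjusted p = 0.0072). NDUFA10 had 94.3, 89.8 and 90.5 CPM with IL4 and 80.6, 79.5 and 79.9 CPM untreated (log2 0.19, adjusted p = 0.032), but gave 0.17 without IL4 replicate 1 (adjusted p = 0.061). In both genes the groups were apart. NDUFB5 had 41.9, 53.0 and 48.8 CPM with IL4 and 41.1, 42.4 and 38.0 CPM untreated, with an overlap (log2 0.24, adjusted p = 0.049). DESeq2 did not call NDUFB5, and it was called in 15 of the 26 settings run. Higher changes without a call were those of NDUFA7 (log2 0.38, adjusted p = 0.098) and NDUFA3 (0.35, adjusted p = 0.073), and in both IL4 replicate 1 was the highest library, at 26.3 and 23.7 CPM. NDUFA4, at 146, 144 and 138 CPM with IL4 and 133, 114 and 121 CPM untreated, was called higher too (log2 0.22, adjusted p = 0.021). The lowest change was that of NDUFC2, with 62.8, 70.0 and 73.5 CPM with IL4 and 79.7, 76.1 and 74.3 CPM untreated (log2 -0.16, adjusted p = 0.12), whose counts were not whole in any library.

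In complex II, the catalytic subunit alone was called. SDHA (chromosome 5, 218241 to 256700), the flavoprotein that oxidises succinate, had 143, 127 and 120 CPM with IL4 and 111, 110 and 108 CPM untreated, without overlap (log2 0.25, SE 0.07, adjusted p = 0.013). Its counts were not whole in 12 libraries. The iron-sulphur subunit SDHB had 72.5, 57.3 and 61.0 CPM with IL4 and 62.8, 60.8 and 55.3 CPM untreated. The membrane anchors SDHC and SDHD had 109, 119 and 115 and 42.6, 63.4 and 60.1 CPM with IL4, and 120, 110 and 113 and 54.3, 62.4 and 54.7 CPM untreated. In these 3 genes the groups overlapped, and the log2 changes were 0.09, -0.00 and -0.04, with 95% intervals of -0.09 to 0.26, -0.14 to 0.13 and -0.28 to 0.19.

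**Figure D2:**
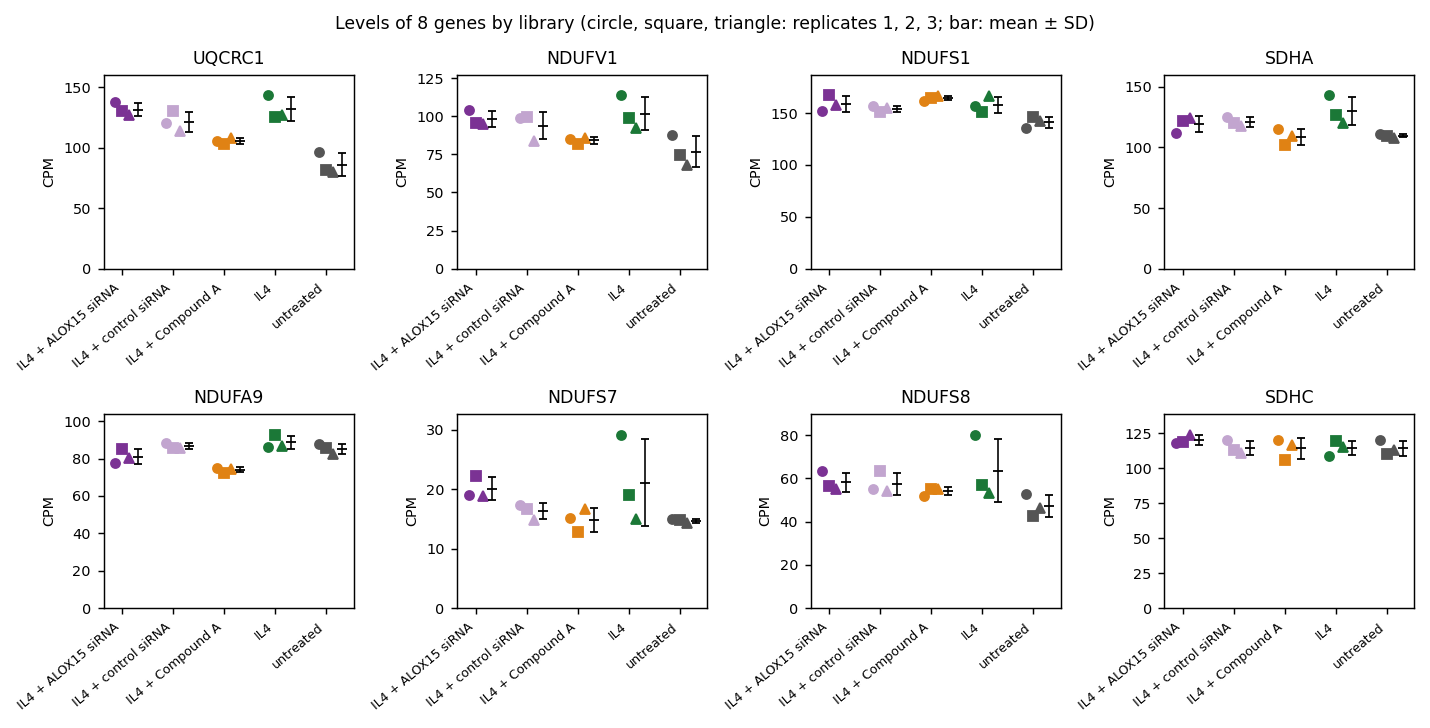
CPM of 8 genes in each library, with groups in the order ALOX15 siRNA, control siRNA, Compound A, IL4 and untreated along the x axis and the mean ± SD (n = 3) beside each group. UQCRC1 sits at 103 to 108 CPM with Compound A, below the IL4 libraries and above the untreated ones, and NDUFS7 and NDUFS8 have their highest value in IL4 replicate 1.

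The part of IL4 replicate 1 was followed over all 49 genes. In it the genes deviated from the mean of the IL4 libraries by a median of 0.14 (log2), and 37 of the 49 were above it; over all genes the median was 0.01. The deviation followed the GC content of the transcript, with r = 0.73 and rho = 0.74 over the 49 genes, and r = 0.63 over the 12584 genes with a GC value. GC content ran from 34.4% (NDUFA5) to 66.8% (NDUFS7). Its median was 50.1% over the 49 genes and 49.3% over all genes tested that had a value. The transcripts of the 49 genes were shorter, with a median length of 766 bases against 2558. Untreated replicate 1 deviated likewise from the mean of the untreated libraries, by a median of 0.11, with 38 of the 49 above it. Its deviation followed GC content less closely, with r = 0.47 over the 49 genes and 0.38 over all genes. The log2 changes themselves followed GC content as well, with r = 0.57 for IL4 against untreated and r = -0.67 for Compound A against IL4 (n = 49 each). Over the 12584 genes these were 0.25 and -0.36. Control siRNA against untreated, which compares no library of IL4 alone, gave r = 0.39 over the 49 genes and 0.14 over the 12584. These points share their libraries, the first 2 comparisons share the IL4 libraries and the 2 against untreated cells share those, so they are descriptions only. Without IL4 replicate 1, 9 of the 49 were called higher, 8 of which were among the 11, and the median change was 0.11. With each library's GC trend removed, 15 were called higher and 1 lower; 10 of the 11 kept their call, NDUFS7 did not (log2 0.26, adjusted p = 0.11). With both changes, 7 of the 11 kept it: NDUFA1, NDUFA4, NDUFB5, NDUFS1, NDUFV1, UQCRB and UQCRC1. Shares of all genes called under these alternatives are not given here, so these counts cannot be set against the calling rate of all genes. What made IL4 replicate 1 and untreated replicate 1 differ was not tested.

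**Figure D3:**
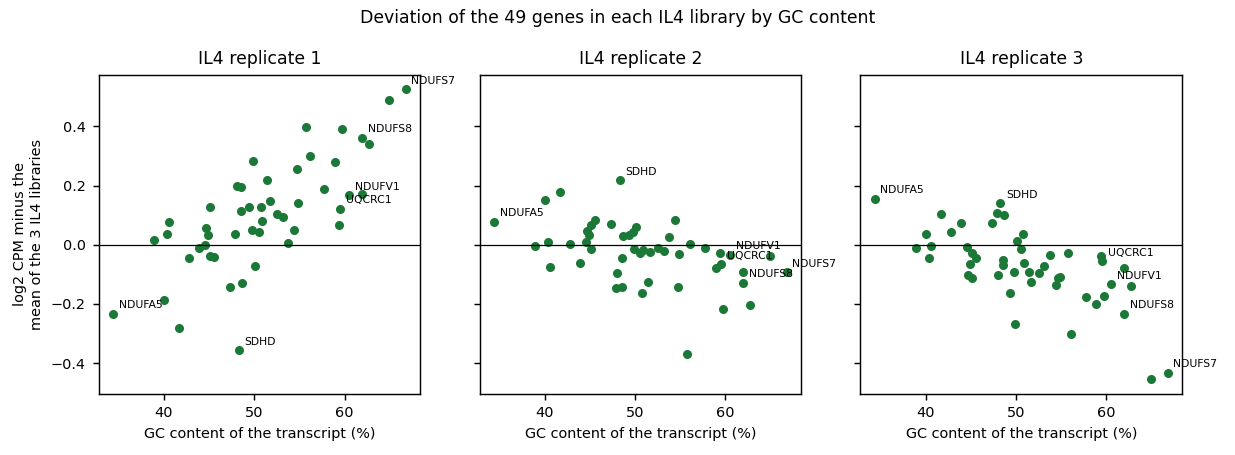
Each point is 1 of the 49 genes; the x axis gives the GC content of its transcripts in percent and the y axis its log2 CPM minus the mean of the 3 IL4 libraries, with a panel for each IL4 replicate. The points climb with GC content in replicate 1 (r = 0.73) and descend in replicates 2 (r = -0.48) and 3 (r = -0.68). Each gene's deviations cancel over the 3 panels by construction. The climb in replicate 1 thus forces a net descent across the other panels.

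Control siRNA with IL4 was set against the same untreated libraries. These cells received both IL4 and siRNA, and no group received siRNA without IL4, so the effects of the 2 cannot be told apart here. Of the 49 genes, 2 were called higher and 0 lower, against 9.93% higher and 9.36% lower of all genes. They were UQCRC1, at 121, 130 and 114 CPM with control siRNA and 96.8, 81.7 and 79.6 CPM untreated (log2 0.49, SE 0.08, adjusted p = 9.1e-05), and NDUFV1, at 98.7, 99.3 and 83.6 CPM with control siRNA and 87.7, 74.6 and 67.8 CPM untreated (log2 0.28, adjusted p = 0.037). The UQCRC1 groups were apart, while the NDUFV1 groups overlapped. The median change of the 49 was 0.09, against -0.02 over all genes, and 37 were positive. On the lower side 1 of the 49 had an unadjusted p under 0.05, and DESeq2 called 0. Set directly against IL4 alone, control siRNA gave 0 calls in either direction by edgeR's quasi-likelihood test, as it did over all genes (0% higher and 0% lower). There 0 of the 49 were higher and 3 lower at an unadjusted p under 0.05 (NDUFA10, NDUFB4 and UQCRFS1), and DESeq2 called 0 of the 49. The median change was -0.06, with 41 of 49 negative, and without IL4 replicate 1 it was -0.03.

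The next comparison asked what Compound A did in the presence of IL4. Of the 49 genes, 5 were called lower and 0 higher, against 8.07% lower and 6.35% higher of all genes, so the 10.2% share of the members was near that of all genes. None had an unadjusted p under 0.05 on the higher side, and DESeq2 called 0 higher. The called genes were UQCRC1 and UQCRFS1 of complex III, SDHA of complex II, and NDUFA9 and NDUFB4 of complex I. The median change of the 49 was -0.13, against 0.00 over all genes, and 38 were negative. In 19 of the 49 every Compound A library lay below every IL4 library and in 0 above, against 15.7% below and 16.1% above of all genes.

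UQCRC1 had 105, 103 and 108 CPM with Compound A and 143, 126 and 127 CPM with IL4 alone, without overlap (log2 -0.32, SE 0.08, adjusted p = 0.0086). Its Compound A libraries still lay above the 96.8, 81.7 and 79.6 CPM of the untreated cells. NDUFA9 (chromosome 12, 4649095 to 4694317), an accessory subunit at the joint of the matrix and membrane arms, had 74.9, 72.4 and 74.3 CPM with Compound A and 86.2, 92.8 and 87.0 CPM with IL4 (log2 -0.26, SE 0.06, adjusted p = 0.0074). Here the Compound A libraries were the lowest of the series. SDHA had 115, 102 and 110 CPM with Compound A and 143, 127 and 120 CPM with IL4 (log2 -0.26, SE 0.07, adjusted p = 0.019).

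NDUFB4, of the membrane arm, had 68.0, 65.5 and 68.4 CPM with Compound A and 80.4, 79.7 and 72.0 CPM with IL4 (log2 -0.20, adjusted p = 0.047). UQCRFS1 had 194, 190 and 188 CPM with Compound A and 238, 216 and 201 CPM with IL4 (log2 -0.20, adjusted p = 0.043). In both, as in SDHA, the groups were apart and IL4 replicate 1 was the highest library. Without it, the calls of SDHA (log2 -0.18, adjusted p = 0.069), NDUFB4 (-0.17, adjusted p = 0.12) and UQCRFS1 (-0.13, adjusted p = 0.17) were lost, while UQCRC1 (-0.26, adjusted p = 0.015) and NDUFA9 (-0.28, adjusted p = 0.0041) kept theirs; the median change of the 49 was then -0.07. The NDUFB4 call held in 9 of the 26 settings and the UQCRFS1 call in 13. A fit of the 2 groups alone called 0 of the 49, with adjusted p = 0.056 for UQCRC1 and 0.077 for NDUFA9.

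None of the 7 core subunits of complex I was called lower with Compound A by edgeR's quasi-likelihood test, while 3 had an unadjusted p under 0.05 in either direction and DESeq2 called 2, NDUFS7 and NDUFV1. NDUFV1 had 84.9, 81.8 and 85.8 CPM with Compound A and 114, 98.8 and 92.3 CPM with IL4, without overlap (log2 -0.27, 95% interval -0.46 to -0.08, adjusted p = 0.053). NDUFS7 had 15.2, 12.7 and 16.6 CPM with Compound A and 29.2, 19.0 and 15.02 CPM with IL4, with overlap (log2 -0.51, adjusted p = 0.056), and without IL4 replicate 1 it gave -0.21 (adjusted p = 0.39). NDUFS1 went the other way, at 162, 165 and 167 CPM with Compound A and 156, 151 and 166 CPM with IL4 (log2 0.06, 95% interval -0.06 to 0.18). A p that misses the threshold does not show that these genes were alike in the 2 groups.

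**Figure D4:**
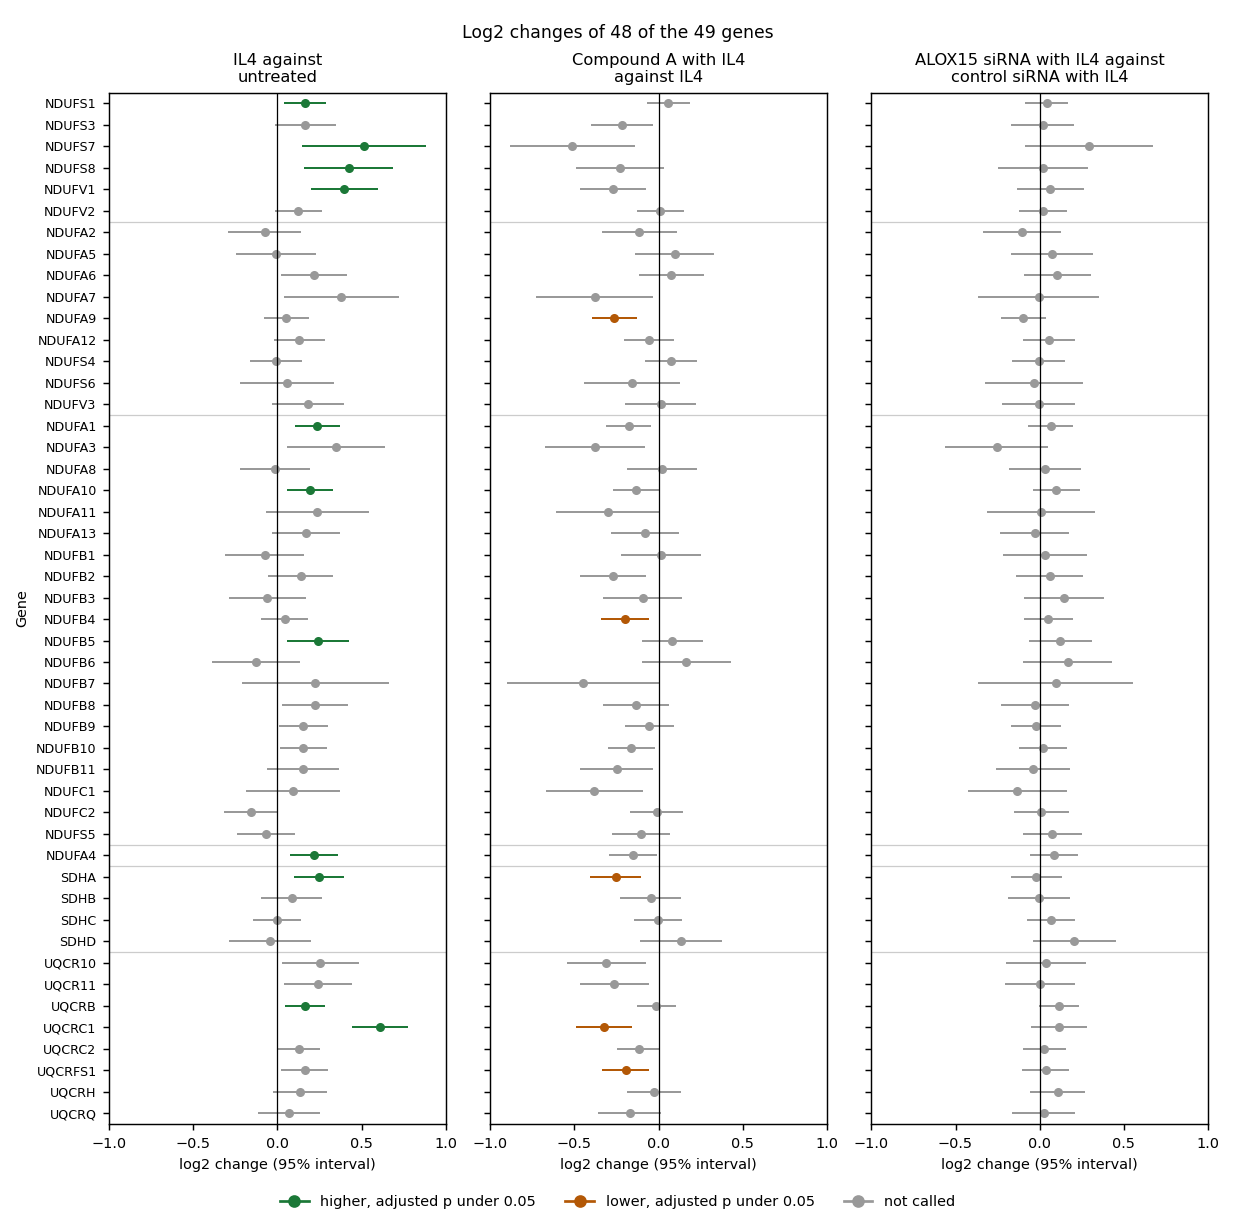
Log2 changes of 48 of the 49 genes with 95% intervals in 3 comparisons, in rows by complex; green marks genes called higher, orange genes called lower, and grey the rest. With IL4 11 are green, with Compound A 5 are orange, and with ALOX15 siRNA all shown are grey.

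Compound A with IL4 was also set against untreated cells. Here 5 of the 49 were called higher and 1 lower, against 12.7% higher and 13.5% lower of all genes, and the median change was 0.01, against 0.00 over all genes. This comparison shares its untreated libraries with that of IL4 alone, and its Compound A libraries with that against IL4. NDUFB5 had 52.4, 49.7 and 50.2 CPM with Compound A and 41.1, 42.4 and 38.0 CPM untreated (log2 0.32, SE 0.08, adjusted p = 0.0073). NDUFA6, an accessory subunit of the matrix arm, had 42.1, 43.0 and 48.2 CPM with Compound A and 37.6, 34.1 and 36.6 CPM untreated (log2 0.29, adjusted p = 0.020). In both the groups were apart. UQCRC1 (log2 0.29, adjusted p = 0.0090), NDUFS1 (0.22, adjusted p = 0.0068) and UQCRB (0.15, adjusted p = 0.043) were higher as well. NDUFA9 was lower, with 74.9, 72.4 and 74.3 CPM with Compound A and 87.8, 85.7 and 82.5 CPM untreated (log2 -0.21, SE 0.06, adjusted p = 0.014). It had shown no call with IL4 alone, at 86.2, 92.8 and 87.0 CPM. NDUFA9 shares exon sequence with annotated genes on its own strand, whose reads cannot be told apart from its own here.

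Knockdown of ALOX15 asked whether the lipoxygenase was needed for these levels under IL4. With ALOX15 siRNA, 0 of the 49 genes were called higher or lower against control siRNA by edgeR's quasi-likelihood test, and DESeq2 called 0, against 0.313% higher and 0.383% lower of all genes. At an unadjusted p under 0.05 there was 1 higher, UQCRB, with 162, 169 and 160 CPM with ALOX15 siRNA and 151, 150 and 151 CPM with control siRNA (log2 0.12, adjusted p = 0.54), and 0 lower. The UQCRB libraries did not overlap. The median change was 0.03, against 0.00 over all genes. UQCRC1 had 138, 130 and 127 CPM with ALOX15 siRNA and 121, 130 and 114 CPM with control siRNA, with an overlap (log2 0.12, 95% interval -0.05 to 0.28). For NDUFV1 the change was 0.06 (95% interval -0.13 to 0.26), for SDHA -0.02 (-0.17 to 0.13) and for NDUFA9 -0.10 (-0.23 to 0.03). Sizes within these intervals could not be told from 0 with 3 libraries a group.

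The effects of Compound A (against IL4) and of ALOX15 siRNA (against control siRNA) were compared with each other in the same fit, and here no libraries are shared. Of the 49 genes, 1 differed with the lower value for Compound A and 0 with the higher, against 3.20% and 1.94% of all genes. None had an unadjusted p under 0.05 on the higher side, and DESeq2 called 0 there. The gene was UQCRC1, with a difference of -0.44 (log2, SE 0.11, adjusted p = 0.023), made of -0.32 for Compound A and 0.12 for the siRNA. The call was lost in the absence of Compound A replicate 2 (adjusted p = 0.072), and also without control siRNA replicate 1 or 3 or ALOX15 siRNA replicate 1. NDUFS7 had the lowest difference, -0.81 (95% interval -1.33 to -0.28, adjusted p = 0.067). The median difference of the 49 was -0.15, against 0.00 over all genes, and 44 were negative.

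The genes around these complexes were counted from lists of known function. Over all genes, IL4 gave 11.2% called higher and 11.6% lower. With IL4, 7 of 11 complex IV genes were called higher, led by COX7B, at 110, 110 and 110 CPM with IL4 and 86.5, 79.0 and 83.5 CPM untreated (log2 0.41, adjusted p = 9.2e-05), with 0 lower by edgeR's test and by DESeq2. Of 16 ATP synthase genes 5 were called higher and 0 lower by both tests, and ATP5B, a catalytic subunit, had 1092, 1039.5 and 987 CPM with IL4 and 826, 799 and 789 CPM untreated (log2 0.37, adjusted p = 4.6e-06). Of 14 TCA cycle genes 8 were called higher and 1 lower, among them OGDH, of the oxoglutarate dehydrogenase complex, at 97.8, 84.5 and 76.8 CPM with IL4 and 65.4, 65.9 and 56.8 CPM untreated (log2 0.46, adjusted p = 0.00089), and SUCLA2, a succinyl-CoA ligase subunit, was the lower one (log2 -0.24, adjusted p = 0.039). SUCLA2 was not called by DESeq2 or without IL4 replicate 1. Without IL4 replicate 1 the counts higher were 6 of 11, 5 of 16 and 8 of 14, and in a fit of the 2 groups alone 4, 2 and 4. Of the subunits of complexes I and III outside the rule, NDUFAB1 and CYC1, edgeR's quasi-likelihood test over all libraries called 0 in each comparison and DESeq2 called 0. There 1 of the 2 had an unadjusted p under 0.05 with IL4 and 1 with Compound A against IL4, and 1 was called in each with the replicate block or without IL4 replicate 3.

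Helper and regulator genes were counted against the same 11.2% higher and 11.6% lower of all genes. Of 30 assembly factors 0 were called higher and 1 lower, SDHAF3 (log2 -0.46, adjusted p = 0.027); DESeq2 called 0 higher, and 5 of the 30 had an unadjusted p under 0.05 in either direction. Of 17 genes that feed or make ubiquinone or encode the carrier cytochrome c, 1 was called higher, COQ6 (log2 0.32, adjusted p = 0.045). The 3 lower were the ubiquinone synthesis genes COQ2 (-0.46, adjusted p = 0.0025) and COQ3 (-0.76, adjusted p = 0.0036), and ETFA (-0.21, adjusted p = 0.012). ETFA is of the flavoprotein that carries electrons from fatty acid oxidation. Of 13 regulators of mitochondrial biogenesis 1 was called higher and 4 lower. PPARGC1B, a coactivator of nuclear receptors, had 20.5, 18.4 and 13.2 CPM with IL4 and 8.07, 6.39 and 6.72 CPM untreated (log2 1.28, adjusted p = 1.6e-05). Its relative PPARGC1A was scarce, at 2.18, 1.57 and 0.783 CPM with IL4 and 3.14, 3.64 and 4.48 CPM untreated (log2 -1.28, adjusted p = 0.0079). TFAM, which packs and transcribes mitochondrial DNA, had 48.2, 72.0 and 75.2 CPM with IL4 and 91.0, 91.4 and 94.1 CPM untreated (log2 -0.50, adjusted p = 0.0026). The gene of the factor NRF1 had 8.46, 9.70 and 10.6 CPM with IL4 and 13.7, 13.8 and 13.0 CPM untreated (log2 -0.50, adjusted p = 0.0093), and TFB2M was lower too (-0.26, adjusted p = 0.023). In each of the 4 regulators given by library the groups were apart. Without IL4 replicate 1, 1 regulator was higher and 3 were lower, and of the 17 ubiquinone and cytochrome c genes 0 were higher and 4 lower.

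**Figure D5:**
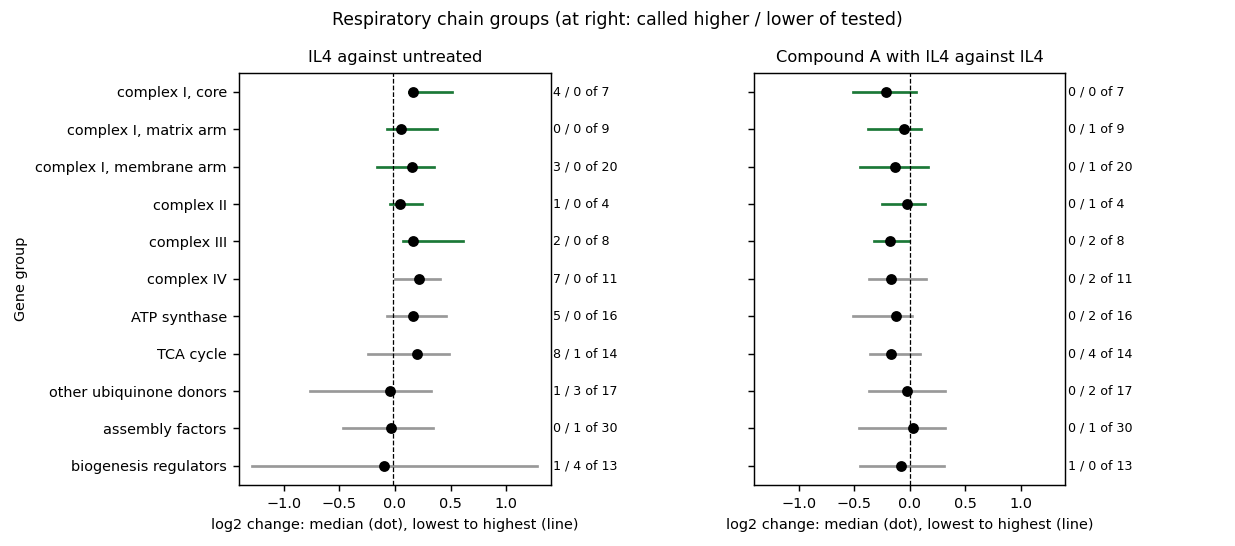
For 5 groups of the 49 genes (green lines, NDUFA4 left out) and 6 surrounding lists (grey lines), the dot gives the median log2 change and the line runs from the lowest to the highest, with the numbers called higher and lower of those tested at the right; the dashed line is the median of all genes. With IL4 the medians of all 5 green groups, complex IV, ATP synthase and the TCA cycle lie above the dashed line. With Compound A they lie below it.

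With Compound A against IL4, 0 of 11 complex IV genes were called higher and 2 lower (COX6B1 and COX7B), 0 of 16 ATP synthase genes higher and 2 lower (ATP5B and ATP5G3), and 0 of 14 TCA cycle genes higher and 4 lower. The shares lower were 18.2%, 12.5% and 28.6%, against 8.07% of all genes, where 6.35% were higher. Without IL4 replicate 1 the counts lower were 1 of 11, 2 of 16 and 3 of 14. In a fit of the 2 groups alone each count was 0. CS, citrate synthase, had 227, 223 and 219 CPM with Compound A and 264, 267 and 268 CPM with IL4, without overlap (log2 -0.26, adjusted p = 0.0016). ATP5B had 888, 870 and 910 CPM with Compound A and 1092, 1039.5 and 987 CPM with IL4, without overlap (log2 -0.22, adjusted p = 0.0032). FH, fumarase, fell by 0.25 on the log2 scale (adjusted p = 0.013). DESeq2 called 0 higher in each of the 3 lists, and 6, 4 and 7 of their genes had an unadjusted p under 0.05 in either direction. Of the regulators, GABPB1, a subunit of the ETS factor GABP, was higher (log2 0.30, adjusted p = 0.048), with 39.9, 38.2 and 37.0 CPM with Compound A and 26.5, 30.7 and 36.0 CPM with IL4. DESeq2 did not call GABPB1, nor was it called without IL4 replicate 1. In the same comparison ETFB was lower (-0.37, adjusted p = 0.0023).

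Levels are shares of all counts in a library, so fewer cells of a kind and less RNA per cell cannot be told apart. Exons of 25 of the 49 genes overlap those of another gene in GENCODE, 18 of them on the opposite strand. No source used here gives the strand setting of the counting. UQCRC1, SDHA, NDUFB4, NDUFS8 and NDUFA4 are among those without such an overlap. NDUFV1, NDUFA1, NDUFS1, NDUFS7, NDUFA9, UQCRB and UQCRFS1, each called in some comparison, are among those with an overlap. Counts were not whole in NDUFC2, SDHA, UQCRB and UQCRH, where reads may be shared with related sequences. The summed epithelial markers were 9794 to 12066 CPM with IL4 and 6344 to 7168 CPM untreated, and with Compound A 8592 to 9378 CPM; their part in the changes of the 49 genes was not tested.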

How the data were processed

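RNA of 15 A549 libraries was sequenced, and the authors deposited 1 table of estimated counts per gene (expected counts). Per the submitters' processing notes, Bowtie2 2.1.0, RSEM 1.2.15 and hg38 were used, and no source used here gives the annotation or strand setting. Between 3.63% and 4.19% of the values in a library were not whole, and all were rounded. Groups came from the labels.

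Counts were scaled by TMM and fitted with edgeR 4.0.16 (R 4.3.3): filterByExpr kept 12795 of 26475 genes, all 15 libraries shared 1 robust quasi-likelihood fit with a coefficient per group, and p-values were adjusted over all genes tested by the Benjamini-Hochberg method. CPM are TMM-scaled and not divided by length, so they are not compared between genes. Alternatives were 15 leave-one-out fits and 11 others, DESeq2 1.42.0 among them, and 1 added after seeing the data (the GC correction without IL4 replicate 1). Scripts were tested on simulated data. Per-library values were given for up to 8 members with the highest and 8 with the lowest change among those called in a comparison, for 11 of 12 fixed members, and for up to 4 called genes with the smallest p in each surrounding list; SUCLA2, TFB2M, NDUFC2, NDUFA3 and NDUFA7 were added after their values were seen. Positions came from GENCODE 29 on GRCh38, promoters from RefSeq on GRCh38.p14. A few items are not reported here. The members, lists and tests were chosen with earlier results of these data known.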

Additional observations from a re-analysis of the deposited data

Results flagged for a closer look

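For UQCRC1, core protein 1 of complex III, the effect of Compound A against IL4 and that of ALOX15 siRNA against control siRNA differed by -0.44 on the log2 scale (SE 0.11, 95% interval -0.67 to -0.21, adjusted p = 0.023 by edgeR's quasi-likelihood test), which is a tested difference between 2 treatments under the same cytokine. It was called in 22 of the 26 settings run, and the highest adjusted p was 0.072. UQCRC1 was lower in 3 of 3 Compound A libraries than in any IL4 library, while the siRNA groups overlapped. All 3 IL4 libraries enter the difference; without IL4 replicate 1 it was -0.38 (adjusted p = 0.012).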

How the results depend on the processing

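The calls of UQCRC1, NDUFV1 and NDUFA1 with IL4 held in all 26 settings. Those of UQCRC1 and NDUFA9 with Compound A against IL4 held in 25 of 26. Such tallies, here and above, include fits without 1 library of a group outside the comparison, where the compared libraries are unchanged. The counts of the 49 genes moved more than the calls just named. Genes higher with IL4 (11) numbered 7 without the filter on low counts, 7 with a length correction and 3 in a fit of only the 2 groups, where fewer libraries estimate the spread; 1 was lower with GC correction, with or without the replicate block. Genes lower with Compound A against IL4 (5) numbered 8 with upper-quartile scaling, 0 in a fit of only the 2 groups, 9 with GC correction, 3 with length correction and 3 with GC correction without IL4 replicate 1, where the median change was -0.062 (0.088 for IL4 against untreated). With control siRNA against untreated (2 higher, 0 lower) there were 1 higher with upper-quartile scaling, 5 higher and 1 lower with GC correction, and 6 higher and 1 lower when IL4 replicate 1 was left out as well. Genes lower with Compound A against untreated (1) numbered 2 with only the 2 groups, 4 with GC correction, 3 with length correction and 5 with GC correction without IL4 replicate 1. For the difference between the effects (1 lower), DESeq2 gave 2 and GC correction 3. The cause of these shifts was not tested. Calls over all genes are given below only for fits of only the 2 groups. For the other settings, here and above, the counts cannot be set against the calling rate of all genes.

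Leaving out 1 library at a time gave 6 to 14 genes higher with IL4 (median change 0.11 to 0.22), 2 to 17 lower with Compound A against IL4 (-0.17 to -0.070), 1 to 4 higher with control siRNA against untreated (0.056 to 0.14), 3 to 5 higher and 0 to 4 lower with Compound A against untreated (0.0037 to 0.064), and 0 to 4 lower in the difference (-0.20 to -0.12). The 6 came without untreated replicate 2. The 17 came without IL4 replicate 3, 9 without untreated replicate 1, 2 without IL4 replicate 1 or Compound A replicate 2 or 3, and 3 without Compound A replicate 1, or replicate 1 or 2 of either siRNA group. With control siRNA, dropping replicate 1 of either untreated or IL4 cells left 4, and dropping untreated replicate 2 or 3 or control siRNA replicate 1 or 2 left 1. With Compound A against untreated, 3 higher came without untreated replicate 2, 4 lower when IL4 replicate 1 was left out, and 0 lower on leaving out untreated replicate 1 or 2 or Compound A replicate 2 or 3. For the difference, 4 came without IL4 replicate 3.

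The labels do not say that equal numbers mark a shared batch, and not every same-numbered pair correlated over 0.1 (8 of 30, range -0.13 to 0.29), so the numbers were not used as pairs. As a hint from the data, 9 of 15 libraries correlated best with their own number. With the replicate block, 14 genes were lower with Compound A against IL4 and 3 in the difference; with GC correction and replicate block these were 10 and 5, with 7 higher and 1 lower for control siRNA and 5 lower for Compound A against untreated. Over all genes, a fit of only the 2 groups called 889 higher and 577 lower with IL4, against 1435 and 1490, and 130 and 267 with Compound A against IL4, against 813 and 1033. NDUFB7, NDUFS7 and NDUFA7, which are among the 5 members with the fewest counts, had the highest standard errors with IL4 (0.20, 0.17 and 0.16).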
